A study of Arabidopsis thaliana with 6 samples.

Results

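The circadian clock genes described here are the *REVEILLE* genes *RVE1*, *RVE2*, *RVE4*, *RVE6*, *RVE7* and *RVE8* and the *LNK* genes *LNK1*, *LNK2*, *LNK3* and *LNK4*, 10 of the 33610 genes counted in Arabidopsis inflorescences. They were chosen by gene identifier as members of 2 clock families, with earlier results of these data known. All 10 had counts in every library and were tested. RNA-seq libraries of inflorescence meristems with flower buds up to stages 10 to 11 represented 3 genotypes, with 2 libraries each. All plants carried the *sep1 sep2* mutations in 2 *SEPALLATA* genes, which encode floral MADS transcription factors. The *sep1 sep2* plants are labelled with these mutations alone, the *sep1 sep2 sep3* plants also carried the *sep3* mutation, and the *sep1 sep2 sep3 SEP3* plants carried all 3 mutations and expressed *SEP3*. The 2 *sep1 sep2 sep3 SEP3* libraries came from independent lines, so each line is represented by 1 library. Below, the *sep1 sep2 sep3* libraries are called the libraries labelled triple, and the *sep1 sep2 sep3 SEP3* lines the *SEP3* lines. The promoter driving *SEP3* in these lines, the mutant alleles, the plant age and the time of day of harvest are not given in the sources used here.

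The plant clock is a loop of transcription factors that peak at different times of day and switch each other on or off. Morning-phased MYB-like factors, among them the REVEILLE proteins, bind to the promoters of clock genes that peak later. RVE4, RVE6 and RVE8 are activators of evening-phased genes, and the LNK proteins, which do not bind DNA themselves, are recruited by RVE8 as co-activators. RVE1, RVE2 and RVE7 belong to another branch of the family, and RVE1 is known for connecting the clock with auxin synthesis. The *LNK* genes are named for their induction by light at night and their regulation by the clock.

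Library totals ranged from 24000063 to 31263376 counts. *SEP3* had 130 and 136 CPM (counts scaled to library size, TMM-normalized) in *sep1 sep2*, against 150 and 151 in the libraries labelled triple, and 489 and 332 in *SEP3* lines 1 and 2. *SEP3* counts were therefore not lower in the libraries labelled triple than in *sep1 sep2* (log2 fold change 0.17, edgeR FDR 0.502), and every direction given below for these libraries rests on their labels. Summed CPM of 6 tapetum markers was 403 and 506 in *sep1 sep2*, against 51.8 and 32.5 in the libraries labelled triple, and 531 and 370 in the lines. Summed CPM of 6 carpel and ovule markers was 106 and 112, 47.7 and 36.7, and 99.9 and 110 in the same order. The 6 flower identity markers summed to between 539 and 734 CPM in all libraries, but single markers differed. In the libraries labelled triple against *sep1 sep2*, 3 of the 6 were higher and 1 was lower at an edgeR FDR under 0.05. By the same rule 1462 of all 25458 genes tested were higher and 2558 lower. *AP1* had 214 and 205 CPM in *sep1 sep2*, against 384 and 373 in the libraries labelled triple, and 186 and 161 in the lines. As these are bulk samples, fewer cells of a type and less RNA per cell cannot be told apart.

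The members differed in their level in *sep1 sep2*. Per kilobase of exon, *LNK2*, *RVE4* and *LNK1* had the highest mean levels with 19.8, 19.2 and 18.9 RPKM (CPM per kilobase of exon). The *RVE4* libraries, at 20.9 and 17.5 RPKM, spanned the levels of the other two genes. *RVE2*, *RVE6* and *RVE7* followed with 9.19, 7.64 and 6.39 RPKM, and *RVE2* and *RVE7* each overlapped *RVE6* between libraries. *LNK3*, *RVE1* and *LNK4* had 3.69, 3.50 and 3.09 RPKM. The *RVE1* libraries overlapped those of *LNK3* and of *LNK4*, while both *LNK3* libraries lay above both of *LNK4*. *RVE8* was the lowest with 1.64 RPKM. Replicate 2 of the libraries labelled triple had 13.4 RPKM of *RVE8*, 25.5 of *LNK3* and 82.8 of *LNK2*, which were the highest levels of these genes in the 6 libraries.

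A gene was called differentially expressed when its log2 fold change was above 1 or below -1 with an FDR under 0.05 over the 25458 genes tested, the thresholds of the study, in edgeR's quasi-likelihood test. In the libraries labelled triple, 5 of the 10 members were higher than in *sep1 sep2* and none was lower. These were all 4 *LNK* genes and *RVE8*. Of all genes tested, 0.939% were called higher and 8.24% were called in either direction in this comparison. The median log2 fold change was 0.73 for the 10 members and -0.03 for all genes tested. Without replicate 2 of the libraries labelled triple, 3 members were called, with log2 fold changes of 1.07 for *RVE8*, 1.27 for *LNK3* and 1.06 for *LNK4*, while *LNK2* (0.98) and *LNK1* (0.68) were not. Without replicate 1, *RVE8* was at 3.04. Wherever a library is left out, its genotype keeps 1 library, which is assumed to vary like the libraries of the other genotypes, so such a call describes that library. Nothing in the labels says that the replicates came from separate plants or cultures, so the FDR values measure only the spread between these libraries.

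The sequences upstream of the 5 called genes are shown because these genes were higher together. Each line gives the 300 bases before the annotated gene start on the gene's strand, 5′ to 3′, read from TAIR10.1. The windows are chr3:2945939-2946238 (plus strand) for *RVE8*, chr5:25676824-25677123 (minus) for *LNK1*, chr3:20179071-20179370 (minus) for *LNK2*, chr3:3923215-3923514 (plus) for *LNK3* and chr5:2166820-2167119 (plus) for *LNK4*. Capitals mark a G-box or a CArG box, which are the motifs found there. The motifs searched on both strands were the evening element (AAAATATCT), the CCA1 binding site (AAAAATCT), the G-box (CACGTG) and the CArG box, the binding motif of MADS factors.
RVE8: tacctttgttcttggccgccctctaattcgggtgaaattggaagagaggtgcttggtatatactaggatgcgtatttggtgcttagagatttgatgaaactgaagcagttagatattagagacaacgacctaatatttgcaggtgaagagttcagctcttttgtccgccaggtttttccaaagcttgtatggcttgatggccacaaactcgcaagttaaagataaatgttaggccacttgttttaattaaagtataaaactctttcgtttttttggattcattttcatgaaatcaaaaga
LNK1: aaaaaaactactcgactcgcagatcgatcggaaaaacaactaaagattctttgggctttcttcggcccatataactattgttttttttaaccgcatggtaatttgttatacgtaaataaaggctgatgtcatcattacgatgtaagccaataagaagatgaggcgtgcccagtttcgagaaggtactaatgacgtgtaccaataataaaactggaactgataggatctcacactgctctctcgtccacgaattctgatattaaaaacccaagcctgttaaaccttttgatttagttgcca
LNK2: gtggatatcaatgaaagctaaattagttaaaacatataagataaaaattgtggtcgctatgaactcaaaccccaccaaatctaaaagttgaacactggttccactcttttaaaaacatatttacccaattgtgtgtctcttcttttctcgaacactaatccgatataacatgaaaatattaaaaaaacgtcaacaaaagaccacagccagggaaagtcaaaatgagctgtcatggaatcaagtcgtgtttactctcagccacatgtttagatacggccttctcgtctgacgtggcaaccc
LNK3: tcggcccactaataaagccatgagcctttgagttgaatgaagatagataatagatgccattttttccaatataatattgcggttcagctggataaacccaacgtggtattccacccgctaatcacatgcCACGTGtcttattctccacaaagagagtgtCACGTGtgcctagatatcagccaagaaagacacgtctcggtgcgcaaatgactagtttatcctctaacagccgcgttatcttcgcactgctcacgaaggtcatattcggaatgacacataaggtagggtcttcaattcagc
LNK4: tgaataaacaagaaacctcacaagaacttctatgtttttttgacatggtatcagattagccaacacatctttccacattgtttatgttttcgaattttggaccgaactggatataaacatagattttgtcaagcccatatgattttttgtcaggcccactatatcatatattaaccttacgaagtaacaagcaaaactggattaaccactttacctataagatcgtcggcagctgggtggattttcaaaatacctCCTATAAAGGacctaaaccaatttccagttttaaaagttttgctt

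In TAIR10.1, *RVE8* (AT3G09600) lies at chr3:2946239-2949017 on the plus strand, *LNK1* (AT5G64170) at chr5:25672466-25676823 on the minus strand and *LNK2* (AT3G54500) at chr3:20175370-20179070 on the minus strand. *LNK3* (AT3G12320) lies at chr3:3923515-3925502 and *LNK4* (AT5G06980) at chr5:2167120-2169437, both on the plus strand. *LNK3* had 2 G-boxes, 171 to 166 and 141 to 136 bases before its start, and 1.0% of the 27443 windows of protein-coding genes held 2 or more. *LNK4* had 1 CArG box 45 to 36 bases before its start. The windows of *RVE8*, *LNK1* and *LNK2* held none of these letters, and the *LNK1* window overlaps the neighbouring gene AT5G64180. Of all windows, 7.09% held a G-box, 2.92% a CArG box, 2.79% an evening element and 7.94% a CCA1 binding site. Among the members that were not called, *RVE7* held the evening element, *RVE2* and *RVE6* the CCA1 binding site, *RVE1* and *RVE2* a G-box, and *RVE6* a CArG box, while *RVE4* held none. A motif match describes the letters in this window only, and binding was not measured in these files.

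The *LNK* genes encode the co-activators. *LNK1* had 49.6 and 51.1 CPM in *sep1 sep2*, against 80.8 and 120 in the libraries labelled triple, and 86.5 and 70.8 in the lines. Both *sep1 sep2* libraries lay below the other 4, and those 4 overlapped between genotypes. Its log2 fold change in the libraries labelled triple was 1.00 ± 0.16 (SE, 2 libraries per genotype, FDR 0.000485), which is just inside the threshold. Of the members, *RVE4* came next below the threshold, at 0.46. *LNK1* shares 245 bases of exon, 9.2% of its total, with a gene on the opposite strand, *LNK2* shares 93 and 44 bases with such genes and *RVE1* 225. Counting by the authors was at default settings, which do not use strand, so reads from these stretches cannot be told apart by strand.

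*LNK2* had the highest level of the family. It had 57.6 and 58.2 CPM in *sep1 sep2*, against 115 and 242 in the libraries labelled triple, and 147 and 120 in the lines. The *sep1 sep2* libraries differed from each other by far less than the libraries labelled triple, where replicate 2 was 2.11 times replicate 1. The log2 fold change of *LNK2* was 1.62 ± 0.24 (FDR 0.000236).

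*LNK3* and *LNK4* are the shorter, less well-known members of the family. *LNK3* had 6.73 and 5.41 CPM in *sep1 sep2*, against 14.7 and 42.0 in the libraries labelled triple, and 24.3 and 13.3 in the lines. Its log2 fold change was 2.23 ± 0.38 (FDR 0.00085). *LNK4* had 6.02 and 5.41 CPM in *sep1 sep2*, against 11.9 and 24.6 in the libraries labelled triple, and 14.0 and 12.7 in the lines, with a log2 fold change of 1.68 ± 0.26 (FDR 0.000422). For both genes the lowest of the other 4 libraries was 1.98 times the higher *sep1 sep2* library. The 4 *LNK* genes together had 120 and 120 CPM in *sep1 sep2*, against 222 and 429 in the libraries labelled triple, and 272 and 217 in the lines.

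*RVE8*, which recruits the LNK co-activators, had the largest log2 fold change of the members. It had 3.09 and 4.58 CPM in *sep1 sep2*, from 78 and 110 counts. It had 8.06 and 31.5 CPM in the libraries labelled triple and 15.1 and 12.5 in the lines. The log2 fold change was 2.38 ± 0.44 (FDR 0.00155), while replicate 2 of the libraries labelled triple was 3.91 times replicate 1.

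*RVE4* and *RVE6* are related to *RVE8* and share its role as activators. *RVE4* (AT5G02840, chr5:648648-651979) had 44.1 and 37.0 CPM in *sep1 sep2*, against 47.2 and 64.2 in the libraries labelled triple, and 50.0 and 57.8 in the lines. Both *sep1 sep2* libraries were the lowest, but by 1.07 times at the nearest pair. Its log2 fold change of 0.46 ± 0.15 passed the FDR (0.0473) without reaching the threshold on the fold change. By the FDR alone, 5.74% of all genes were higher in this comparison. *RVE6* (AT5G52660, chr5:21359001-21362273) had 12.6 and 12.7 CPM, 10.4 and 11.3, and 13.3 and 11.4 in the same order. Its log2 fold change was -0.22 (95% interval from -0.57 to 0.13, FDR 0.441).

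*RVE1*, *RVE2* and *RVE7* were not called in any of the comparisons. *RVE1* (AT5G17300, chr5:5690225-5692992) had 5.86 and 8.24 CPM in *sep1 sep2*, against 5.72 and 12.1 in the libraries labelled triple, and 9.46 and 10.7 in the lines. The libraries labelled *sep1 sep2 sep3* held both the lowest and the highest value, and the log2 fold change was 0.35 (95% interval from -0.27 to 0.96, FDR 0.496). *RVE2* (AT5G37260, chr5:14751344-14753088) had 7.48 and 10.5 CPM, 7.23 and 7.05, and 8.11 and 7.86 in the same order, with a log2 fold change of -0.33 (95% interval from -0.79 to 0.12, FDR 0.346). It was the only member whose highest library was a *sep1 sep2* library. *RVE7* (AT1G18330, chr1:6305814-6308243) had 9.98 and 15.9 CPM, 13.5 and 16.3, and 17.4 and 14.9, with a log2 fold change of 0.21 (95% interval from -0.22 to 0.64, FDR 0.568), and its libraries overlapped between genotypes. A stretch of 1121 bases of *RVE7* is 99.7% identical to the AT3G10113 locus, and reads mapping to several places were left out by the authors, so the level of *RVE7* is uncertain.

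**Figure D1:**
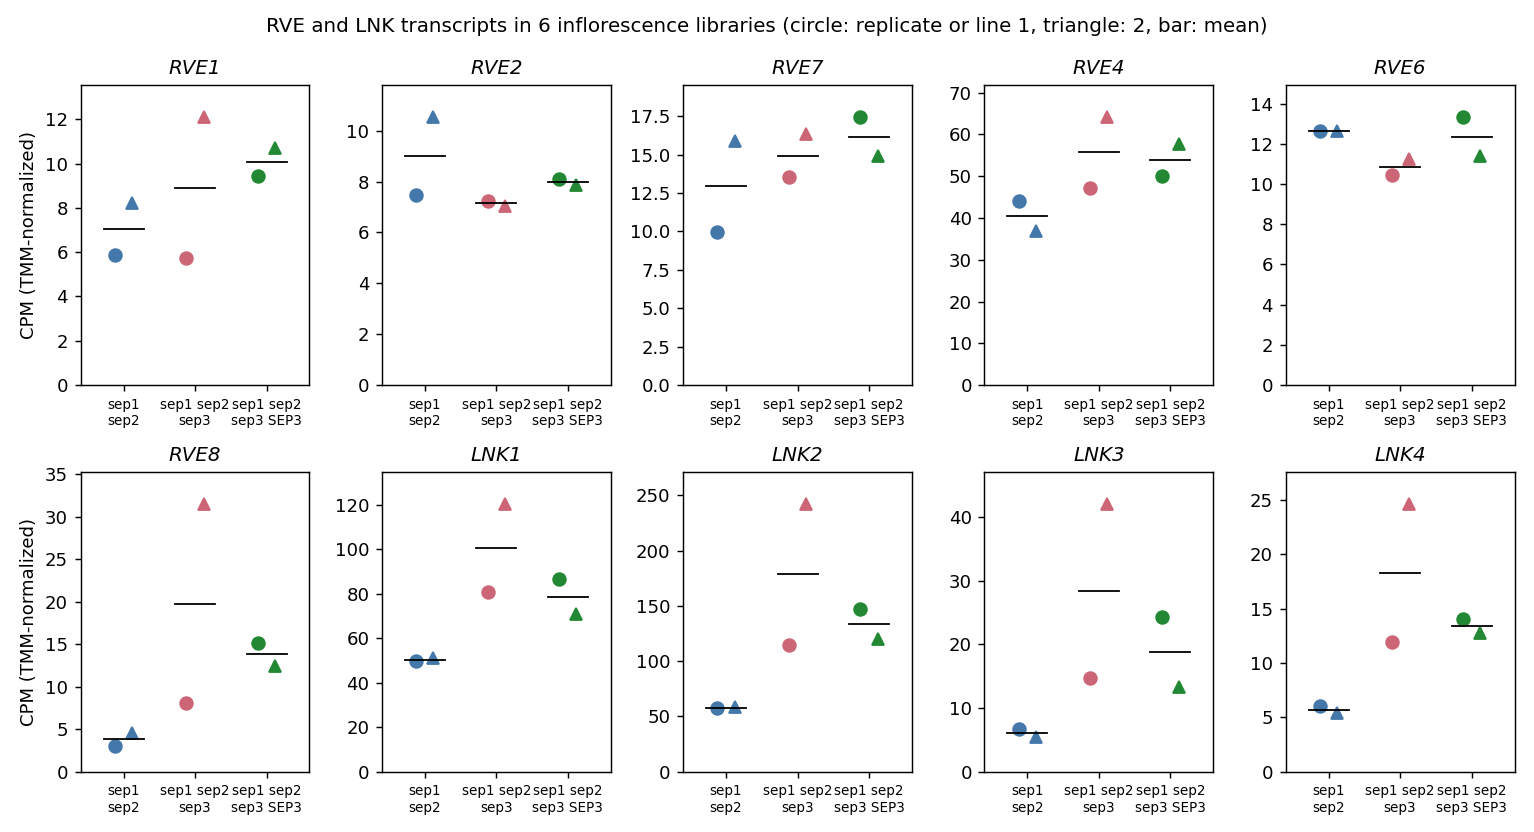
Normalized counts (CPM, vertical axes from 0) of the 10 members in each of the 6 libraries, by genotype, with the 2 libraries as points and their mean as a bar. In *RVE4*, *RVE8* and the 4 *LNK* genes both *sep1 sep2* libraries are the lowest, and replicate 2 of the libraries labelled triple is the highest.

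The *SEP3* lines served the study as a further comparison for finding genes regulated by SEP3. None of the 10 members was called in the *SEP3* lines against the libraries labelled triple. The count was 0 in edgeR and 0 in DESeq2. In edgeR 1 member, *LNK1*, had an unadjusted p under 0.05, as had 5837 of all 25458 genes tested. Of all genes tested, 6.29% were called in this comparison in either direction. The log2 fold changes of the 4 *LNK* genes ran from -0.59 for *LNK3* to -0.36 for *LNK1*, with 95% intervals from -1.34 to 0.15 and from -0.69 to -0.02. *RVE8* had -0.53 (95% interval from -1.37 to 0.32, FDR 0.515), *LNK2* -0.42 (from -0.91 to 0.08, FDR 0.322) and *LNK4* -0.45 (from -0.99 to 0.08, FDR 0.314). The intervals of *RVE8*, *LNK2*, *LNK3* and *LNK4* include no difference, and those of *RVE8* and *LNK3* also include a drop beyond the threshold. The values for *RVE1*, *RVE2*, *RVE7*, *RVE4* and *RVE6* were 0.17, 0.16, 0.12, -0.05 and 0.19. Which library labelled *sep1 sep2 sep3* was used mattered here. With replicate 2 as the only library labelled triple, *RVE8* (-1.19) and *LNK3* (-1.16) were called lower in the lines, and with replicate 1 as the only one both were positive at 0.78 and 0.36 and not called. These values compare the lines with 1 library and take the spread from the other genotypes.

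Against *sep1 sep2*, 4 of the 10 members were called higher in the *SEP3* lines and none was called lower, while 0.365% of all genes tested were called higher and 1.5% were called in either direction. *RVE8* was higher by a log2 fold change of 1.85 ± 0.44 (FDR 0.0287), *LNK3* by 1.64 ± 0.38 (FDR 0.0263), *LNK4* by 1.23 ± 0.26 (FDR 0.0176) and *LNK2* by 1.21 ± 0.23 (FDR 0.0101). *LNK1*, at 0.64 ± 0.16, passed the FDR (0.0352) but not the threshold on the fold change. *RVE4* had 0.41 (FDR 0.147), *RVE1* 0.52 (FDR 0.405), *RVE7* 0.32, *RVE2* -0.17 and *RVE6* -0.03. The number called was 0 without either *sep1 sep2* replicate or without line 1, 2 without line 2, 1 with DESeq2 and 0 after edgeR's filter on low counts. The 3 comparisons share libraries in pairs, so their values are not independent of each other.

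**Figure D2:**
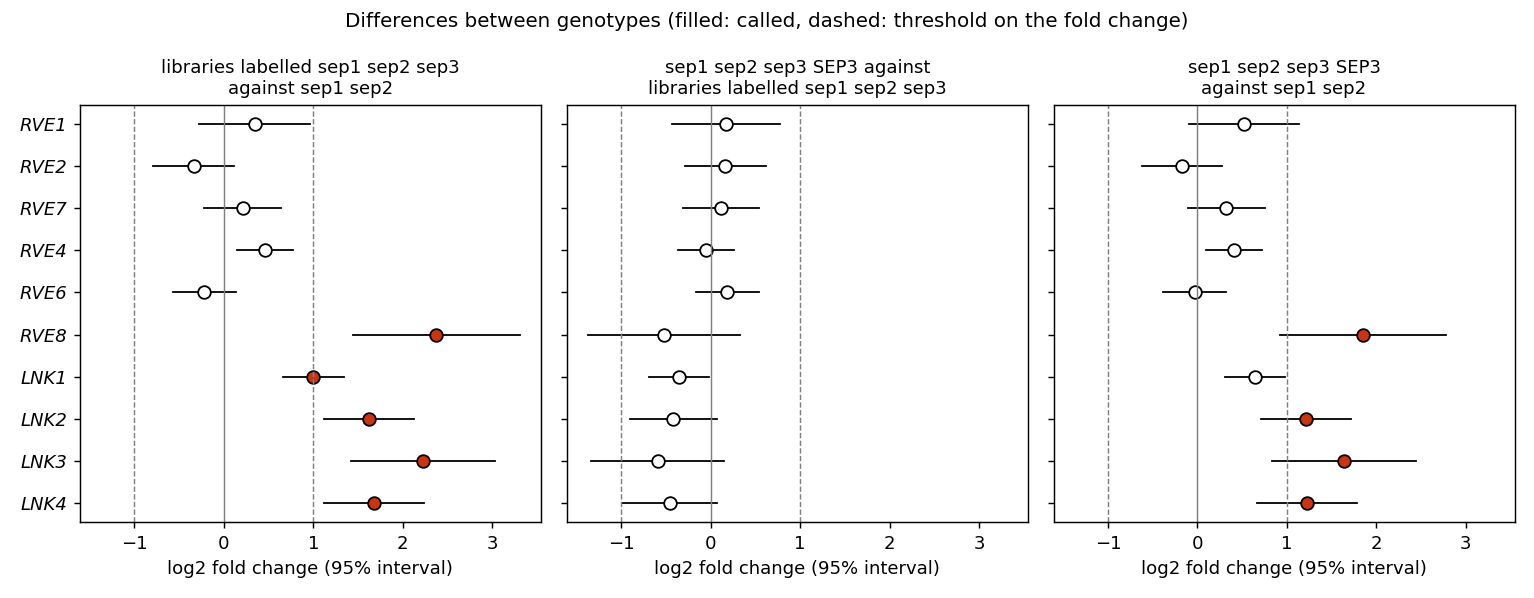
Log2 fold changes (horizontal axes) of the 10 members in the 3 comparisons between genotypes, as points with 95% intervals, filled where called and with dashed lines at 1 and -1. *RVE8*, *LNK2*, *LNK3* and *LNK4* are called in both comparisons with *sep1 sep2*, *LNK1* in the first alone, and no member is called between the lines and the libraries labelled triple.

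The order of the libraries was shared by most members that differed. Both *sep1 sep2* libraries were below all 4 others in 6 members, *RVE4*, *RVE8* and the 4 *LNK* genes, and in 12.1% of all genes tested. In all 6, replicate 2 of the libraries labelled triple was the highest. Of the 10 members, 5 (*RVE8* and the 4 *LNK* genes) had this library as the highest and line 1 next, as did 2.91% of all genes tested. Among the libraries labelled triple, replicate 2 was 1.49 times replicate 1 in *LNK1*, 2.06 times in *LNK4*, 2.11 times in *LNK2*, 2.86 times in *LNK3* and 3.91 times in *RVE8*. The *sep1 sep2* replicates differed by at most 1.48 times in these genes.

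Other clock genes were followed with a list of 20 genes that are not among the 10 members. The list holds the further *REVEILLE* genes *RVE3* and *RVE5*, named here after their values were seen. They were not called in any comparison, with log2 fold changes of 0.83 (FDR 0.477) and 0.17 (FDR 0.467) in the libraries labelled triple relative to *sep1 sep2*, and *RVE3* had only 7 to 31 counts per library. In the libraries labelled triple, 3 of the 20 were called higher and 7 lower than in *sep1 sep2*, against 239 higher and 1859 lower of all 25458 genes tested. The median log2 fold change of the 20 genes was -0.61. In the *SEP3* lines against *sep1 sep2*, 3 were higher and 5 lower, against 93 higher and 290 lower of all genes tested. Between the lines and the libraries labelled triple, 6.29% of all genes tested were called by edgeR. In edgeR 2 of the 20, *CCA1* (log2 fold change -0.84) and *PRR9* (-0.84), had an unadjusted p under 0.05 there. So had 5837 of all 25458 genes tested. None of the 20 was called there by edgeR or DESeq2. The number called was 11 without replicate 1 of the libraries labelled triple and 1 without line 1. The calls against *sep1 sep2* in the lines fell to 2 without either *sep1 sep2* replicate and to 1 without line 1, and were 2 with DESeq2 and 0 after edgeR's filter on low counts.

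Of the 4 dawn-phased or morning-phased genes on the list, 3 were called higher than in *sep1 sep2* in both other genotypes. Of all genes tested, 0.939% were called higher in the libraries labelled triple and 0.365% in the lines. *CCA1*, a MYB-like repressor related to the REVEILLE proteins, had 8.59 and 9.91 CPM in *sep1 sep2*, against 25.3 and 69.4 in the libraries labelled triple, and 31.8 and 21.2 in the lines. Its log2 fold change was 2.36 (FDR 0.000201) in the libraries labelled triple and 1.52 (FDR 0.0209) in the lines, both relative to *sep1 sep2*. *LHY*, its close relative, had 6.41 and 7.41, 17.5 and 107, and 38.6 and 24.4 CPM, with log2 fold changes of 3.18 (FDR 0.00102) and 2.19 (FDR 0.0367). *PRR9*, a morning pseudo-response regulator, had 2.69 and 2.83, 13.3 and 19.7, and 12.0 and 6.37 CPM, with 2.58 (FDR 2.26e-05) and 1.74 (FDR 0.00365). For all 3 genes replicate 2 of the libraries labelled triple was the highest and the *sep1 sep2* libraries were the lowest, as in the *LNK* genes.

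Of the 7 evening-phased genes on the list, 4 were called lower than in *sep1 sep2* in the libraries labelled triple and 3 in the lines, and none was higher. Among all 25458 genes tested, 1859 and 290 were called lower in the same order. *TOC1*, the evening repressor of *CCA1* and *LHY*, had 141 and 110 CPM in *sep1 sep2*, against 64.6 and 37.5 in the libraries labelled triple, and 50.6 and 80.7 in the lines. Its log2 fold change was -1.30 (FDR 0.00114) in the libraries labelled triple. In the lines it was -0.94 (FDR 0.0332), which did not reach the threshold on the fold change. *ELF4*, a subunit of the evening complex that represses growth genes at night, had 40.8 and 37.6, 7.19 and 0.20, and 1.78 and 5.81 CPM. Its log2 fold change was -3.46 (FDR 0.0038) in the libraries labelled triple and -3.40 (FDR 0.0157) in the lines. *BOA*, a MYB-like factor related to the evening complex subunit LUX, had 13.8 and 7.74, 2.59 and 0.75, and 2.67 and 3.06 CPM. The log2 fold changes of *BOA* were -2.72 (FDR 0.000485) and -1.91 (FDR 0.0174) in the same 2 comparisons. The cold-regulated clock genes *COR27* and *COR28*, listed outside the evening-phased genes, were also lower. In the libraries labelled triple they had log2 fold changes of -4.04 (FDR 0.00138) and -3.45 (FDR 0.000219). In the lines they had -3.23 (FDR 0.0167) and -2.54 (FDR 0.00691). *COR27* had 45.8 and 37.8 CPM in *sep1 sep2*, against 5.26 and 0.068 in the libraries labelled triple, where replicate 2 held 2 counts, and 2.21 and 6.89 in the lines. *COR28* had 13.7 and 15.0, 2.38 and 0.34, and 2.21 and 2.74 CPM. Among the evening-phased genes, replicate 2 of the libraries labelled triple was the lowest in 7 of 7, line 1 was the second lowest in 6 of 7, and both *sep1 sep2* libraries were the highest in 7 of 7. Their summed CPM was 513 and 438 in *sep1 sep2*, against 252 and 94.6 in the libraries labelled triple, and 151 and 268 in the lines. *RVE8*, *LNK3* and *CCA1* were thus highest in the library in which these evening-phased genes were lowest. The part of the harvest time of each library in these differences was not tested.

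**Figure D3:**
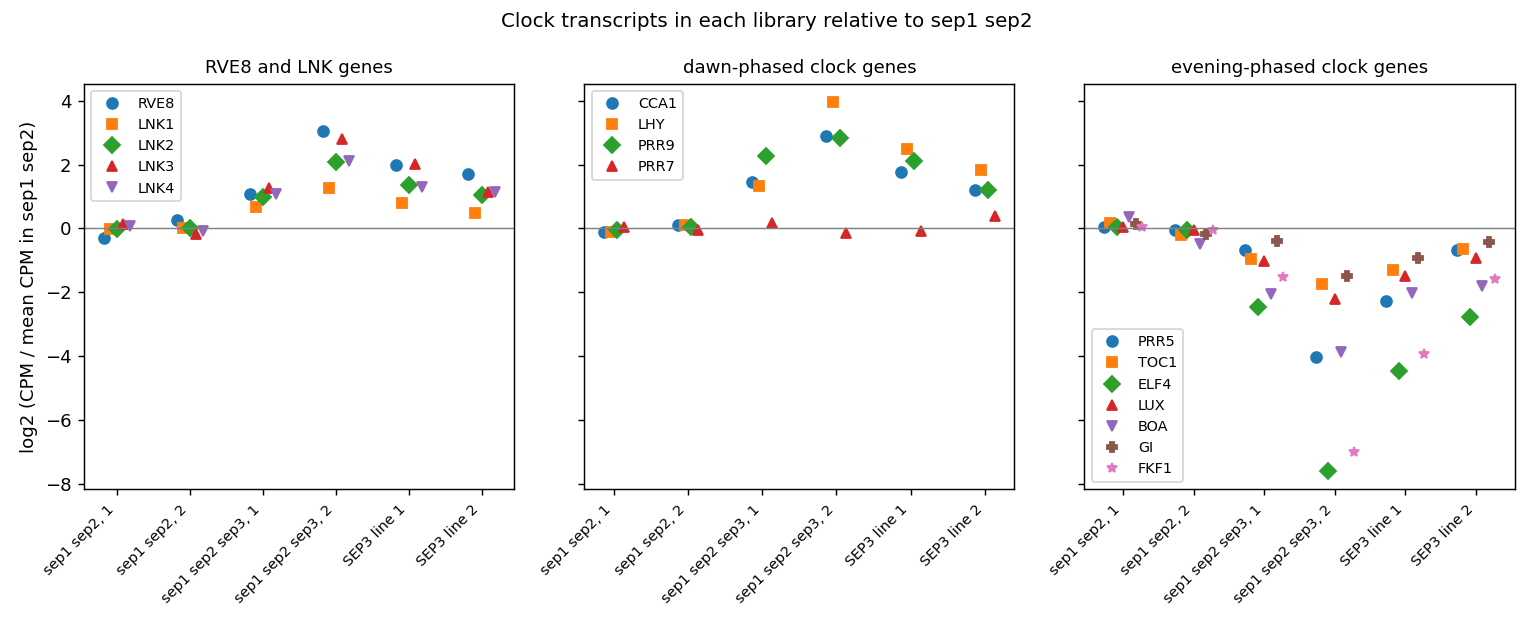
Level of each gene in each library relative to the mean of *sep1 sep2*, on a log2 scale (vertical axis), for *RVE8* and the *LNK* genes, the 4 dawn-phased and the 7 evening-phased genes of the clock list. Replicate 2 of the libraries labelled triple is the highest for the 5 members and for 3 of the 4 dawn-phased genes, and the lowest for all 7 evening-phased genes.

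Marker genes of tissues within the inflorescence also differed between the libraries. Summed CPM of 8 photosynthesis genes, a measure of green tissue, was 19620 and 19320 in *sep1 sep2*, against 21520 and 23450 in the libraries labelled triple, and 14380 and 12820 in the lines. None of the 8 was called in the libraries labelled triple against *sep1 sep2*. By the FDR alone 2 were higher, as were 5.74% of all genes tested. In the lines the sum of the photosynthesis genes was at its lowest, although 1 of the 8, *LHCB2.1*, had a log2 fold change of 0.06 relative to *sep1 sep2*. Relative to the libraries labelled triple, 1 of the 8 was called lower in the lines, and all 8 were lower by the FDR alone. Among all 25458 genes tested, 140 were called lower there and 1315 were lower by the FDR alone. Of all 25458 genes tested, 1859 were called lower in the libraries labelled triple than in *sep1 sep2*. Among them were 5 of the 6 carpel and ovule markers and 6 of the 6 tapetum markers. In the lines none of these 12 markers was called against *sep1 sep2*, a comparison in which 1.5% of all genes tested were called. The part of these tissues in the levels of the clock genes was not tested.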

How the data were processed

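RNA of inflorescences was sequenced in 2 libraries for each of 3 genotypes. STAR was used by the authors to map reads to TAIR10. They left out reads that mapped to several places and counted reads per gene with featureCounts at default settings. They deposited these counts as whole numbers without normalization for 33610 genes per library. These defaults do not use strand. Tool versions are not given in the sources used here. Low counts (1 to 20) were even in 85.9 to 88.3% of genes by library, so both reads of a pair probably entered the count. The authors' 2 deposited comparison tables hold their log2 fold changes, mean expression, F statistics, p-values and FDR values and were not used.

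The 25458 genes with at least 1 count were fitted over all 6 libraries with edgeR 4.0.16 (quasi-likelihood test, TMM, prior count 0.125) and limma 3.58.1 in R 4.3.3, and FDR values are Benjamini-Hochberg adjusted over all of them. Standard errors come from the fold change and its F statistic. CPM are TMM-normalized. Library totals had a median of 24884508.5 counts, and libraries of a genotype differed beyond counting noise (chi-square per degree of freedom from 14.5 to 19.2). The scripts were tested on simulated counts. Alternatives were DESeq2 1.42.0, its size factors, filterByExpr, halved counts, a replicate block, 2 genotypes only, no fold threshold, and each library left out. Coordinates, exon lengths and upstream bases come from RefSeq's annotation of TAIR10.1, whose nuclear sequence is that of TAIR10, and near copies were searched with BLAST 2.17.0 at 90% identity over at least 100 bases. The members and all gene lists were chosen with earlier results of these data known. All members are named, and of the clock list *CCA1*, *LHY*, *TOC1* and *PRR9* and the 4 other called genes with the largest fold changes. *RVE3*, *RVE5* and *PRR7* are named in addition, after their values were seen.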

Additional observations from a re-analysis of the deposited data

How the results depend on the processing

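The 14 other settings gave 420 values for the members, of which 368 kept their direction and side of the threshold, 30 lost a call, 4 gained one and 18 changed sign. In the libraries labelled triple against *sep1 sep2*, *RVE8*, *LNK3* and *LNK4* were called in 14 of 14 settings, *LNK2* in 12 and *LNK1* in 9. The members called were 3 to 5 with a library left out (main 5), and 3 with both libraries of highest level left out, a setting chosen after seeing the data. Without replicate 2 of the libraries labelled triple the log2 fold changes were 0.68 for *LNK1*, 0.98 for *LNK2*, 1.07 for *RVE8*, 1.27 for *LNK3* and 1.06 for *LNK4*. In the lines against *sep1 sep2*, the 4 calls became 1 with DESeq2, 0 with filterByExpr, which kept 20716 genes, 2 with the replicate block, and 0 to 4 with a library left out. The log2 fold changes of *RVE8*, *LNK2*, *LNK3* and *LNK4* were 1.86, 1.22, 1.65 and 1.24 with DESeq2 and 1.85, 1.21, 1.63 and 1.22 with filterByExpr, so the FDR changed and the fold changes hardly did. For the clock list the 8 calls became 2, 0, 3 and 1 to 10. In the lines against the libraries labelled triple, the 0 calls became 0 to 2 for the members and 0 to 11 for the clock list with a library left out, and the clock list gave 8 to 13 against *sep1 sep2* in these libraries (main 10), where DESeq2 called 7. The cause of these changes was not tested.

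Values that changed sign with a library left out were *RVE1* (-0.30 to 0.78) and *RVE7* (-0.076 to 0.58) in the libraries labelled triple against *sep1 sep2*, *RVE2* (-0.39 to 0.094) and *RVE6* (-0.15 to 0.076) in the lines against *sep1 sep2*, and, in the lines against the libraries labelled triple, *RVE1* (-0.26 to 0.82), *RVE7* (-0.013 to 0.26), *RVE4* (-0.25 to 0.19), *RVE8* (-1.19 to 0.78), *LNK2* (-0.86 to 0.22), *LNK3* (-1.16 to 0.36) and *LNK4* (-0.88 to 0.16). With both highest libraries left out, *RVE1* was at -0.30 in the first comparison, and *RVE4*, *RVE8*, *LNK2* and *LNK4* were at 0.29, 0.63, 0.068 and 0.093 in the lines against the libraries labelled triple. The deviations of same-numbered libraries correlated at -0.09, -0.03 and 0.05 across 18703 genes. No strong shared effect of the replicate number was thus seen, but these values cannot show whether the libraries were collected or prepared in pairs. With the replicate block, 4 members were called in the first comparison and 0 between the lines and the libraries labelled triple.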
